A study of Mus musculus and Acomys cahirinus with 16 samples.

Results

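The 10 genes described here encode the main epithelial keratins of the epidermis between the hair follicles: Krt5, Krt14, Krt1, Krt10, Krt2, Krt6a, Krt6b, Krt16, Krt17 and Krt13. They were taken by symbol from a list drawn up with earlier results of these data known. All 10 were found among the 56980 genes of the mouse table, and 9 among the 19818 genes of the spiny mouse table, in which no gene is listed as Krt6b. RNA with poly(A) tails was sequenced from skin of 2 rodents, the laboratory mouse (Mus musculus) and a spiny mouse (Acomys cahirinus), a species known for regenerating skin. Each species gave 4 untreated samples and 4 samples of skin treated with DMBA/TPA, so there were 4 groups of 4 samples. DMBA is a mutagenic hydrocarbon and TPA a phorbol ester, and together they are the classical treatment for inducing skin tumours in mice. The labels give no strain, sex, age, dose, number of applications or time of sampling, nor whether a treated sample was taken from a tumour. They do not say that replicates came from separate animals, so p-values measure the spread between these samples only.

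Keratins are the intermediate filament proteins of epithelial cells. Filaments form from pairs of 1 type I keratin (Krt10, Krt13, Krt14, Krt16 and Krt17 here) and 1 type II keratin (Krt1, Krt2, Krt5, Krt6a and Krt6b). Basal keratinocytes, the dividing layer, make the Krt5/Krt14 pair. Cells that leave the basal layer switch to Krt1/Krt10, and Krt2 is added in the uppermost living layers of some body sites. Krt6a, Krt6b, Krt16 and Krt17 belong to hair follicles in resting skin and are induced in the epidermis between follicles by wounding, inflammation and phorbol esters. Krt13 is a keratin of internal stratified epithelia such as the oral mucosa, and its appearance in mouse skin papillomas is a known marker of tumour progression.

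In the mouse genome (GRCm39) the 5 type II genes lay on chromosome 15 within 174.8 kb and the 5 type I genes on chromosome 11 within 875.8 kb. In the spiny mouse assembly (AcoCah2) the 4 listed type II genes lay on scaffold_6 within 159.0 kb and the type I genes on scaffold_9 within 820.1 kb. Krt6b (chromosome 15, 101584458 to 101588722) and Krt6a (chromosome 15, 101598345 to 101602742) are neighbours on the minus strand of the mouse genome, with 9622 bases between them. Their coding sequences were identical at 1622 of 1659 aligned positions (97.8%). Of all 50-base stretches of the canonical transcript, 49.5% in Krt6a and 50.1% in Krt6b also occurred in another gene. Fragments that map to more than 1 place were not counted, so the counts of both genes rest on the parts where they differ. The 60-base stretch with the most differences shows how such fragments are told apart. It starts at coding base 817 in exon 4, and capitals mark the 10 bases that differ between the copies (GRCm39, minus strand, 5′ to 3′).
Krt6a, chr15:101600919-101600978: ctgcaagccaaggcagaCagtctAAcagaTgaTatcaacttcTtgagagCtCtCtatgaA
Krt6b, chr15:101586738-101586797: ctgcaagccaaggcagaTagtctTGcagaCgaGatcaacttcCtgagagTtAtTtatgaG

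Other members were less similar. Coding identity was 86.7% between Krt14 and Krt16, 85.7% between Krt14 and Krt17, 83.6% between Krt5 and Krt6a, and 80.5% between Krt16 and Krt17. Shared 50-base stretches made up 36% of Krt16, 13.4% of Krt14, 8.47% of Krt5 and 3.69% of Krt17, and none of Krt1, Krt10, Krt2 or Krt13. By this sequence sharing the counts of Krt6a, Krt6b and Krt16 are the most uncertain of the mouse members. In addition, 24.8% of the exon bases of Krt6a overlap genes on the other strand, and the counting command names no strand option. Spiny mouse keratin sequences were not compared here, so fragments of similar copies may be missing from or added to its counts.

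RefSeq promoter windows (GRCm38.p6, the 250 bases before the start) were at hand for 5 of the 10 members, Krt5, Krt14, Krt10, Krt2 and Krt13. Windows for Krt5, Krt10 and Krt2 are shown because these genes stand for the basal layer, the spinous layer and the upper layers, and moved differently in the data below. Capitals mark matches to CACCC on either strand, a short motif bound by Krüppel-like factors, and to TATAAA, the core of the TATA box. All are on the minus strand.
Krt5, chr15:101712906-101713155: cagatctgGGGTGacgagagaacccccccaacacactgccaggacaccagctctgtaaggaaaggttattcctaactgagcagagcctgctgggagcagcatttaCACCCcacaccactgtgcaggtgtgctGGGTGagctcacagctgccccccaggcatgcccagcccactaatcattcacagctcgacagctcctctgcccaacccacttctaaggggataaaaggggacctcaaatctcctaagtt
Krt10, chr11:99389365-99389614: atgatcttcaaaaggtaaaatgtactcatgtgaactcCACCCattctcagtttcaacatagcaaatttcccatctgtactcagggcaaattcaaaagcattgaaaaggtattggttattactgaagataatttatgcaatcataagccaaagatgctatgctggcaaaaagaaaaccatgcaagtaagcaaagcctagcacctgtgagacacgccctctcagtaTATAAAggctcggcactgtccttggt
Krt2, chr15:101818170-101818419: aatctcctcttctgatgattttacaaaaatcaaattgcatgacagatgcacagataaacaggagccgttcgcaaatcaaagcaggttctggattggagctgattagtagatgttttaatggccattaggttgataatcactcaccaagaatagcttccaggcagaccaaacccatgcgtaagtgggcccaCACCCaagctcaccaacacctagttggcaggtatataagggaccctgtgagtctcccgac

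The Krt5 window held 3 CACCC matches and the Krt10 and Krt2 windows 1 each, a motif found in 52% of all 32851 windows of that length. TATAAA, found in 12.4% of windows, occurred in the Krt10 window 26 bases before the start. TGANTCA, the AP-1 motif through which phorbol esters are known to act, is found in 6.75% of windows. It occurred in both windows of Krt13, 1 time in the first and 2 times in the second, and in none of the windows of Krt5, Krt14, Krt10 or Krt2. The motifs do not overlap each other, both strands were searched, and a match describes the letters only.

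Total counts ran from 19608787 to 30198281 per mouse sample and from 21143918 to 30561256 per spiny mouse sample, and 3 counts correspond to between 0.0982 and 0.153 CPM, the count of a gene divided by the scaled library size. Without molecular identifiers these limits reflect counting error alone. The members took between 0.756% and 1.47% of all counts in untreated and between 3.04% and 4.17% in treated mouse samples. In spiny mouse these shares were 1.45% to 1.74% and 2.87% to 3.52%. Several libraries stood apart in cell-type markers. Untreated mouse replicate 2 alone of its group was high in 11 genes of the growing hair follicle (summed level 2751 CPM, the others 10.1 to 42.6 CPM). Untreated mouse replicate 1 alone contained liver transcripts (580.4 CPM over 4 genes, the others 4.69 to 5.79). In spiny mouse, untreated replicates 1 and 2 were high in the same follicle genes (11460 and 12450 CPM, replicates 3 and 4 at 1224 and 3704). All 4 treated mouse samples were high (23900 to 26370 CPM), and treated spiny mouse samples ranged from 215.2 to 3631 CPM. Markers of all keratinocytes, including the epidermal master regulator Trp63, were present in every sample. Skeletal muscle transcripts fell with treatment, in 12 of 12 genes in mouse and 11 of 11 tested in spiny mouse. Over all genes tested, 35.3% were called lower in mouse and 26.9% in spiny mouse. In such bulk samples fewer cells of a type and less RNA per cell cannot be told apart.

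In mouse skin, 7 of the 9 members tested were called higher after DMBA/TPA and none was called lower, at an edgeR quasi-likelihood adjusted p under 0.05. Among all genes tested, 61.2% were called in either direction, 25.9% higher and 35.3% lower. The 7 were both basal keratins, all 4 hyperplasia keratins and the suprabasal Krt1. Krt10 and Krt2 missed the threshold, and Krt13 had too few counts to be tested. At an unadjusted p under 0.05, edgeR had 1 member lower (Krt2), and after adjustment DESeq2 called 0 and limma-voom 1 lower. For those same 7 members every treated sample lay above every untreated one, while 58.6% of all tested genes had groups that did not overlap. The median log2 fold change of the 9 members was 2.19, beside -0.15 for all genes tested.

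In spiny mouse skin, 6 of the 9 members tested were called higher and 2 lower, with Krt10 the only one missing the threshold. There 55.1% of tested genes were called, 28.2% higher and 26.9% lower. The 6 were Krt5, Krt14, Krt1, Krt6a, Krt16 and Krt17, and the 2 were Krt2 and Krt13. Groups did not overlap for these 8 members, beside 50.9% of all genes tested. The members' median log2 fold change was 0.65, beside -0.010 over all tested genes. A positive value means a higher level in treated skin throughout.

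**Figure D1:**
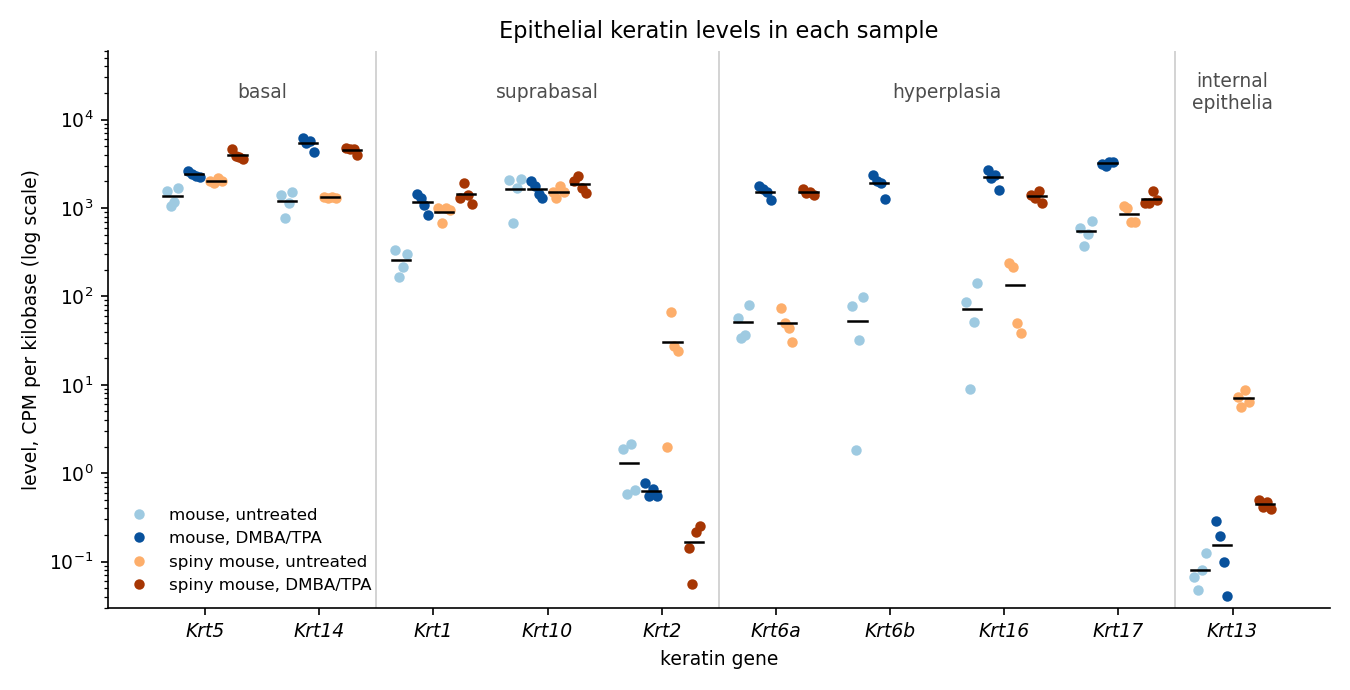
Level of each keratin gene in each sample, in CPM per kilobase of the deposited gene length on a log axis. Points are the 4 samples of a group and black bars their means. Krt6a, Krt6b and Krt16 lay between 1.84 and 236 CPM per kb in untreated skin and between 1131 and 2686 in treated skin, while Krt10 overlapped between groups in both species. The species were scaled separately.

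Krt5, the type II keratin of the basal layer, stood at 3393, 2317, 2571 and 3668 CPM in untreated mouse replicates 1 to 4 and at 5729, 5279, 5103 and 4937 CPM in treated ones. All treated samples were above all untreated samples, a 1.76-fold rise (log2 fold change 0.82, SE 0.21, edgeR adjusted p = 0.00805). In spiny mouse Krt5 stood at 4437, 4178, 4756 and 4408 CPM untreated and at 10130, 8329, 8192 and 7714 CPM treated. The groups were again apart, and the rise was 1.93-fold (log2 0.95, SE 0.12, edgeR adjusted p = 0.000202).

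Krt14, its type I partner, rose by more in each species. Its untreated mouse levels were 2476, 1359, 1984 and 2696 CPM, with replicate 2 lowest, and its treated levels 10980, 9665, 9930 and 7477 CPM. This was a 4.47-fold rise (log2 2.16, SE 0.27, edgeR adjusted p = 0.00018). Untreated spiny mouse samples lay close together at 2263, 2207, 2304 and 2212 CPM, and treated ones at 8214, 7859, 8012 and 6833 CPM, a 3.44-fold rise (log2 1.78, SE 0.10, edgeR adjusted p = 8.16e-06). Per kilobase of gene length, Krt5 over Krt14 had a geometric mean of 1.14 (range 1.04 to 1.36) in untreated and 0.446 (0.411 to 0.528) in treated mouse libraries. The spiny mouse values were 1.55 (1.49 to 1.62) and 0.871 (0.804 to 0.97). The partners' transcripts were thus in a ratio above 1 in every untreated library and below 1 in every treated library of both species.

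Genes shared by all keratinocytes moved beside the basal keratins in mouse, and fewer of them did in spiny mouse. Of 12 such genes (adhesion and transcription factor genes such as Cdh1, Dsp and Trp63), 10 rose in mouse, and their summed level was 5841 to 9387 CPM in untreated and 12420 to 14900 CPM in treated samples. In spiny mouse 4 of 12 rose and 8 were not called. Their summed level there was 7567 to 9162 CPM untreated and 8771 to 10940 CPM treated, with overlap. Among all genes tested, 25.9% rose in mouse and 28.2% in spiny mouse. With libraries scaled by those 12 genes, the mouse Krt5 fold change was -0.14 on the log2 scale (edgeR adjusted p = 0.379), so its rise was not seen relative to them. Krt14 kept a rise of 1.2 on the log2 scale in mouse (edgeR adjusted p = 0.000266) under that scaling. In spiny mouse Krt5 then rose by 0.61 (edgeR adjusted p = 0.00107). Of 6 genes for attachment of the basal layer to the basement membrane, in mouse 1 rose (Itga3) and 2 fell (Col17a1 and Lamb3). In spiny mouse 4 rose and none fell. Over all genes tested, 35.3% fell in mouse and 26.9% in spiny mouse.

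Krt1, the type II keratin of the spinous layer, was at 1466, 731.3, 960.7 and 1343 CPM in untreated mouse skin and at 6372, 5724, 4782 and 3712 CPM in treated skin. The groups were far apart, a 4.57-fold rise (log2 2.19, SE 0.28, edgeR adjusted p = 0.000225). In spiny mouse it was at 2358, 1627, 2404 and 2260 CPM and then at 3111, 4502, 3307 and 2621 CPM. The lowest treated sample was just above the highest untreated one, and the rise was 1.57-fold (log2 0.65, SE 0.19, edgeR adjusted p = 0.0161). That call was lost when libraries were scaled by the 12 keratinocyte genes (log2 0.32, adjusted p = 0.136). It was also lost without untreated replicates 1 and 2, the spiny mouse libraries high in follicle genes (log2 0.53, edgeR adjusted p = 0.0702).

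Krt10, the type I partner of Krt1, did not follow it. Untreated mouse samples were at 4432, 1422, 3583 and 4458 CPM and treated ones at 4223, 3711, 3077 and 2767 CPM. The groups overlapped widely, with untreated replicate 2 the lowest of all 8, and the fitted log2 fold change was -0.012 (SE 0.34, edgeR adjusted p = 0.977). In spiny mouse the values were 5261, 4393, 6075 and 5196 CPM untreated and 6901, 7989, 5818 and 5060 CPM treated, again overlapping (log2 0.30, SE 0.16, edgeR adjusted p = 0.148). Krt1 over Krt10 per kilobase was 0.164 untreated and 0.711 treated in mouse, and 0.594 and 0.755 in spiny mouse, and every treated library exceeded every untreated one of its species. The deposited mouse Krt1 length of 4415 bases includes introns, and the canonical transcript has 2455. Mouse Krt1 levels per kilobase are therefore low by that measure, at 254.9 against 458.3 in untreated skin. The change of Krt1 itself between groups is untouched, as is that of Krt1 over Krt10. The deposited spiny mouse Krt10 length is 3433 bases, beside 2114 in mouse. Spiny mouse levels per kilobase, ratios and shares that hold Krt10 depend on that length.

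Krt2, the keratin of the uppermost living layers, differed most between the species. In mouse it was low, at 4.84, 1.54, 5.53 and 1.69 CPM untreated and 2.05, 1.45, 1.71 and 1.45 CPM treated, from 33 to 151 counts per sample. Untreated replicates 2 and 4 overlapped the treated ones, and the log2 fold change was -1.04 (SE 0.43, edgeR adjusted p = 0.0624). It passed the threshold without untreated replicate 2 (-1.19, adjusted p = 0.0082) or without untreated replicate 4 (-1.25, adjusted p = 0.0296), by edgeR. In untreated spiny mouse skin Krt2 was at 5.07, 170.8, 69.3 and 62.1 CPM, with replicate 1 far below the others. All 4 treated samples were lower, at 0.364, 0.143, 0.549 and 0.64 CPM, from 4 to 15 counts each. The log2 fold change was -7.51 (SE 1.08, edgeR adjusted p = 0.00042). It lay between -7.91 and -6.75 when single libraries were left out.

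**Figure D2:**
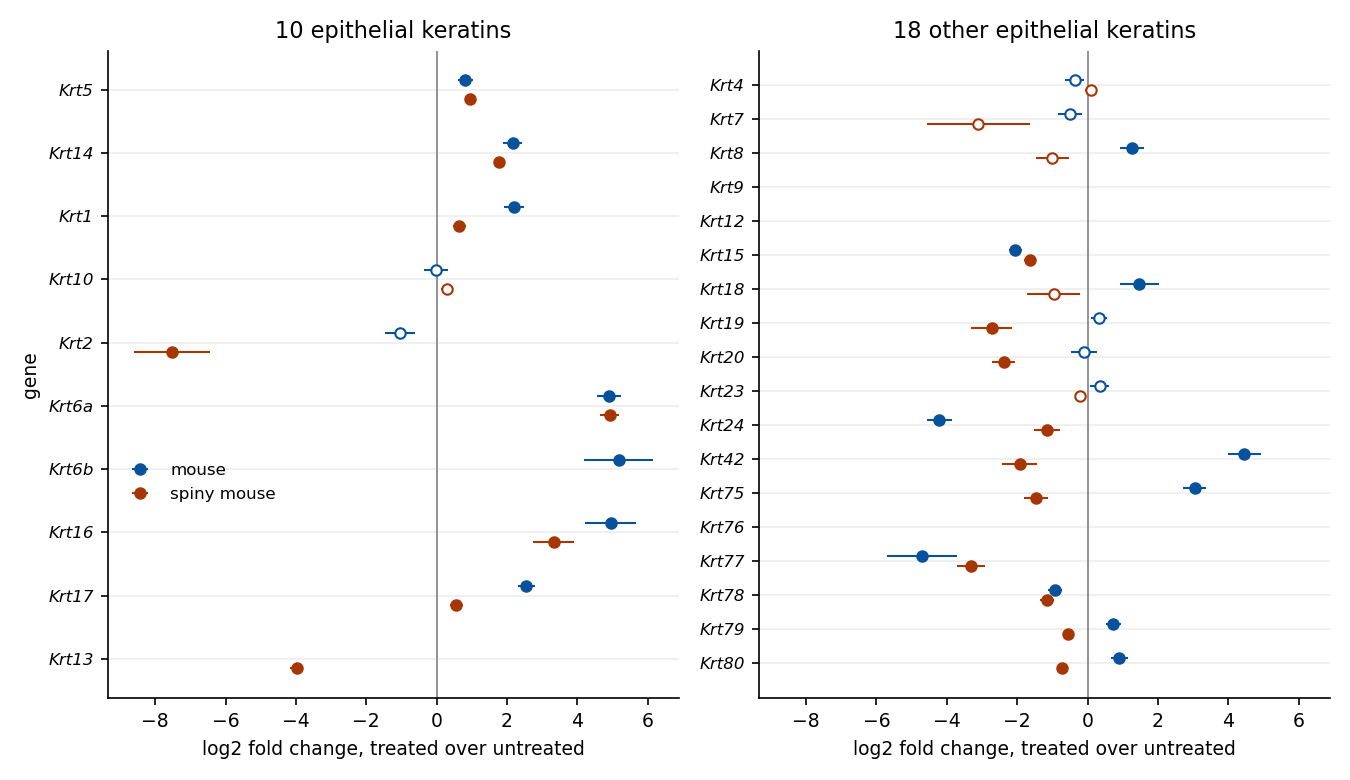
Log2 fold changes of treated over untreated skin with their standard errors, for the 10 keratins (left) and 18 other epithelial keratins (right). Filled points passed an edgeR adjusted p of 0.05, open points did not, and a missing point means that the gene was not listed or had too few counts. The hyperplasia keratins lie to the right of 0 in both species, and 4 of the other keratins (Krt42, Krt75, Krt79 and Krt80) were called in opposite directions in the 2 species.

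Krt6a, Krt6b and Krt16 showed the largest rises among the members in mouse, and Krt6a and Krt16 in spiny mouse. Krt17 rose by less, by 2.55 in mouse and 0.56 in spiny mouse on the log2 scale. Krt6a, the type II keratin induced in activated keratinocytes, stood at 136.8, 82.1, 88.4 and 192.3 CPM in untreated mouse skin. Treated mouse samples were at 4230, 3957, 3713 and 2937 CPM, a 29.7-fold rise (log2 4.89, SE 0.34, edgeR adjusted p = 1.09e-05). No Krt6b is listed in spiny mouse and the species were scaled separately, so the Krt6a levels of the species are not compared. Spiny mouse Krt6a stood at 141.3, 95.3, 83.3 and 57.8 CPM untreated and at 3100, 2791, 2918 and 2671 CPM treated. The rise was 30.4-fold (log2 4.92, SE 0.27, edgeR adjusted p = 6.95e-06), and in both species the lowest treated sample was over 10 times the highest untreated one.

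Krt6b, the near-identical neighbour of Krt6a shown above, was at 173.2, 4.12, 71 and 220.5 CPM in untreated mouse skin. Replicate 2, the library high in growing follicle genes, had 94 counts where the others had 1937 to 4841. Treated samples stood at 5286, 4489, 4326 and 2829 CPM, a 36.1-fold rise (log2 5.17, SE 0.97, edgeR adjusted p = 0.00168). Without untreated replicates 1 and 2 the log2 fold change was 4.96 (SE 0.49, edgeR adjusted p = 1.12e-05).

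Krt16, the type I partner of Krt6, was at 133.7, 13.9, 80.4 and 223.2 CPM in untreated mouse skin, again lowest in replicate 2, and at 4204, 3459, 3734 and 2525 CPM in treated skin. The groups were far apart, a 30.9-fold rise (log2 4.95, SE 0.73, edgeR adjusted p = 0.000459). Untreated spiny mouse samples fell into a high and a low pair, 372 and 341.9 CPM in replicates 1 and 2, and 79 and 60 CPM in replicates 3 and 4. Treated samples were all higher, at 2227, 2056, 2481 and 1784 CPM, a 10.0-fold rise (log2 3.32, SE 0.59, edgeR adjusted p = 0.00129). Replicates 1 and 2 are the untreated libraries high in follicle genes. Without them the log2 fold change was 4.93 (SE 0.21, edgeR adjusted p = 0.000104), so the size of the Krt16 rise in spiny mouse rests on which untreated libraries are used.

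Krt17, which outer root sheath cells of the follicle also make, was well above Krt6a and Krt16 per kilobase in untreated skin. Mouse samples were at 919.5, 570.7, 778.5 and 1103 CPM untreated and at 4931, 4676, 5077 and 5098 CPM treated. The groups were well apart, a 5.87-fold rise (log2 2.55, SE 0.23, edgeR adjusted p = 3.57e-05). In spiny mouse it was at 1642, 1557, 1079 and 1087 CPM untreated and at 1795, 1769, 2443 and 1922 CPM treated. The lowest treated sample was just above the highest untreated one, and the rise was 1.48-fold (log2 0.56, SE 0.18, edgeR adjusted p = 0.0223). Leaving out untreated replicate 3, untreated replicate 4 or treated replicate 3 gave log2 0.47, 0.47 and 0.45 with edgeR adjusted p = 0.0529, 0.0621 and 0.058. With libraries scaled by the 12 keratinocyte genes its log2 fold change was 0.24 and the call was lost (edgeR adjusted p = 0.279). Without untreated replicates 1 and 2 together, the rise was 0.86 (edgeR adjusted p = 0.0028).

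**Figure D3:**
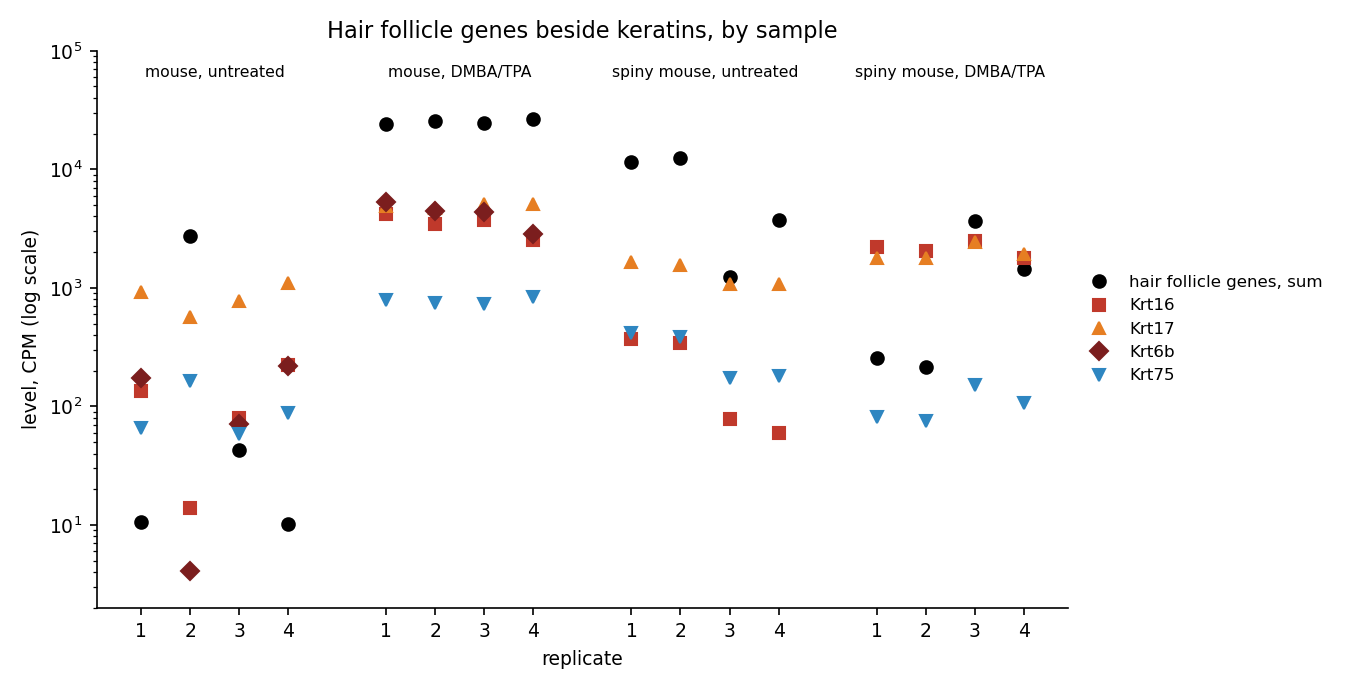
Summed level of growing hair follicle genes (11 in mouse, 10 in spiny mouse) and levels of Krt16, Krt17, Krt6b and Krt75 by sample, in CPM on a log axis. Untreated mouse replicate 2 is high in follicle genes (2751 CPM) and low in Krt6b (4.12 CPM) and Krt16 (13.9 CPM), whereas untreated spiny mouse replicates 1 and 2 are high in follicle genes and in Krt16.

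Growing follicle genes moved differently in the 2 species. In mouse 10 of 11 growing follicle genes, most of them inner root sheath keratins and cross-linking proteins, were called higher, beside 25.9% of all genes tested. In spiny mouse 1 of 10 was called lower and none higher, beside 26.9% and 28.2% of all genes tested. The log2 fold changes of all 10 were nonetheless negative there, from -2.56 to -1.69. Among untreated spiny mouse libraries, Krt16 and Krt17 were highest in replicates 1 and 2, the pair with the most follicle RNA. Treated spiny mouse replicate 3, with the most follicle RNA of its group (3631 CPM), also had the highest Krt16 and Krt17. Treated spiny mouse replicate 4, next in follicle RNA (1435 CPM), had the lowest Krt16 of its group (1784 CPM). Untreated mouse replicate 2, with the most follicle RNA of its group (2751 CPM), had the lowest Krt16 and Krt17 (13.9 and 570.7 CPM). Treated mouse libraries held 23900 to 26370 CPM of follicle genes. Treated spiny mouse replicates 1 and 2 had 255.9 and 215.2 CPM of follicle genes with Krt16 at 2227 and 2056 CPM, whereas untreated replicates 1 and 2 had 11460 and 12450 CPM of follicle genes with Krt16 at 372 and 341.9 CPM. The part of follicle cells in the changes of Krt16 and Krt17 was not tested.

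Krt13, the internal epithelial keratin, was barely present in mouse skin. Its counts were 3, 2, 4 and 5 in untreated and 10, 8, 5 and 2 in treated samples, at most 0.525 CPM, and the groups overlapped. At these counts a fall in mouse could not be seen, nor a small rise told from counting error. No treated mouse sample held more than 10 counts. Spiny mouse skin had more, at 12.6, 9.76, 15.2 and 11.1 CPM untreated (243 to 445 counts). Treated samples were all lower, at 0.864, 0.715, 0.805 and 0.685 CPM (15 to 22 counts), log2 -3.98 (SE 0.18, edgeR adjusted p = 3.54e-06). It lay between -4.07 and -3.85 when single libraries were left out.

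The order of levels within a group, per kilobase, changed with treatment. In untreated mouse skin Krt10, Krt5 and Krt14 led with means of 1643, 1360 and 1211 CPM per kb, and their sample ranges overlapped each other in turn. Krt17 (543.5) and Krt1 (254.9) followed, each apart from its neighbours in the order. Per kilobase of canonical transcript, however, Krt1 (458.3 ± 138.3) and Krt17 (503.9 ± 134.5) differed by less than their spread (SD, n = 4). Krt16, Krt6b and Krt6a (72.1, 52.4 and 51.6) overlapped one another, and Krt2 (1.30) and Krt13 (0.0802) came last. In treated mouse skin Krt14 led at 5411 ± 837 CPM per kb and Krt17 was next at 3189 ± 125 (SD, n = 4), each apart from the next. The 5 genes from Krt5 (2395) through Krt16, Krt6b and Krt10 to Krt6a (1534) each overlapped the next in order, as did Krt6a and Krt1 (1166). Per kilobase of canonical transcript Krt1 stood at 2097 in treated mouse skin, which would place it among those 5. In untreated spiny mouse skin Krt5 led alone at 2044 CPM per kb by deposited length, then Krt10 (1524) and Krt14 (1314), then Krt1 (909.6) and Krt17 (853.9). The place of Krt10 in the spiny mouse orders depends on its deposited length of 3433 bases, beside 2114 in mouse. Without division by length, untreated spiny mouse Krt10 averaged 5231 CPM and Krt5 4445 CPM. In treated spiny mouse skin Krt14 (4520) and Krt5 (3950) led with overlapping ranges, and Krt10, Krt6a, Krt1, Krt16 and Krt17 followed between 1877 and 1262, each overlapping the next.

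**Figure D4:**
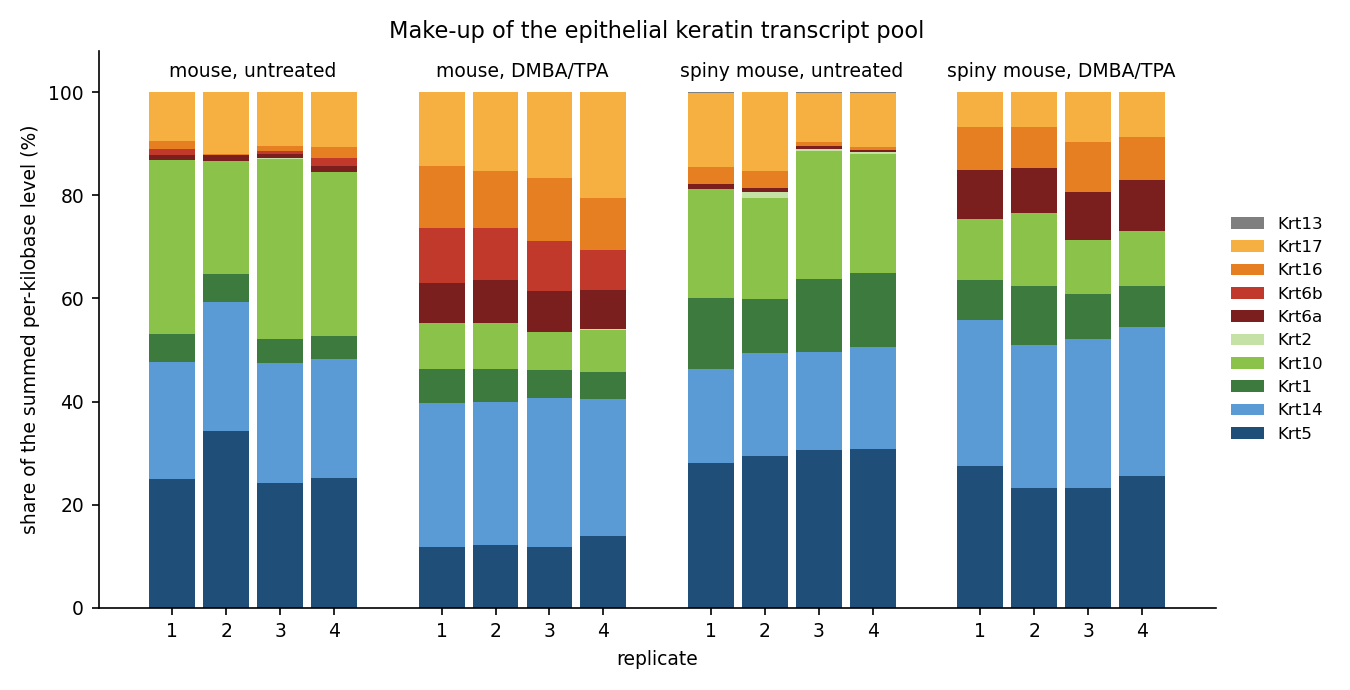
Share of each keratin in the summed per-kilobase level of the members, in percent, for each of the 16 libraries. Hyperplasia keratins (red to yellow) made up 12.9% to 15.5% of the pool in untreated and 44.8% to 46.5% in treated mouse libraries, and 10.9% to 19.3% and 23.5% to 28.7% in spiny mouse libraries. Krt6b is listed in mouse only.

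Seen as a pool, the members' transcripts shifted from suprabasal to hyperplasia keratins. In mouse the hyperplasia keratins went from 13.7% ± 1.22 to 45.5% ± 0.88 of the summed per-kilobase level, the suprabasal ones from 35.6% ± 5.76 to 14.3% ± 1.32, and the basal ones from 50.7% ± 5.79 to 40.2% ± 0.444 (SD, n = 4). In spiny mouse the hyperplasia keratins went from 15.1% ± 4.5 to 26% ± 2.36, the suprabasal ones from 35.8% ± 3.6 to 20.7% ± 3.25, and the basal ones from 48.9% ± 1.78 to 53.3% ± 2.17. The hyperplasia share of the 4 treated mouse libraries ran only from 44.8% to 46.5%. These are shares of 1 total, so a rise in one lowers the others, and the spiny mouse pool has no Krt6b. The suprabasal shares also depend on the long deposited lengths of Krt1 in mouse and of Krt10 in spiny mouse.

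The ratio of hyperplasia to basal keratins in a library was 0.226 to 0.322 in untreated and 1.12 to 1.15 in treated mouse skin. In spiny mouse it was 0.221 to 0.403 untreated and 0.441 to 0.551 treated, again without overlap. The mouse sum includes Krt6b (mean 1894 CPM per kb in treated skin) and the spiny mouse sum does not. This ratio is therefore compared within a species only. Suprabasal over basal went from 0.459 to 0.833 down to 0.319 to 0.389 in mouse, and from 0.632 to 0.795 down to 0.342 to 0.501 in spiny mouse. The lowest untreated mouse value was that of replicate 2. These mouse sums hold Krt1 by its deposited length, at a mean of 254.9 untreated and 1166 treated CPM per kb. By canonical transcript it stands at 458.3 and 2097. The mouse suprabasal values are therefore low, by more in treated libraries, and the fall of this ratio is overstated. Krt10 over Krt14, a simple measure of spinous against basal transcripts, was 0.87 to 1.5 untreated and 0.258 to 0.32 treated in mouse, and 0.992 to 1.31 and 0.362 to 0.506 in spiny mouse. Type II over type I members, the balance of the partners, overlapped between groups. Geometric means untreated and treated were 0.512 and 0.559 in mouse, and 0.791 and 0.762 in spiny mouse. The mouse overlap rests on untreated replicate 2, at 0.69. Untreated replicates 1, 3 and 4 lay between 0.432 and 0.481, below the treated libraries at 0.532 to 0.589. The mouse type II sum also holds Krt1 by its deposited length. Single pairs were less even. Krt16 over Krt17 was 0.0918 untreated and 0.686 treated in mouse, and 0.119 and 1.08 in spiny mouse. Krt6a over Krt16 overlapped between groups in mouse, where untreated replicate 2 stood at 3.83 and the other 7 libraries between 0.558 and 0.753. No test was run on ratios.

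**Figure D5:**
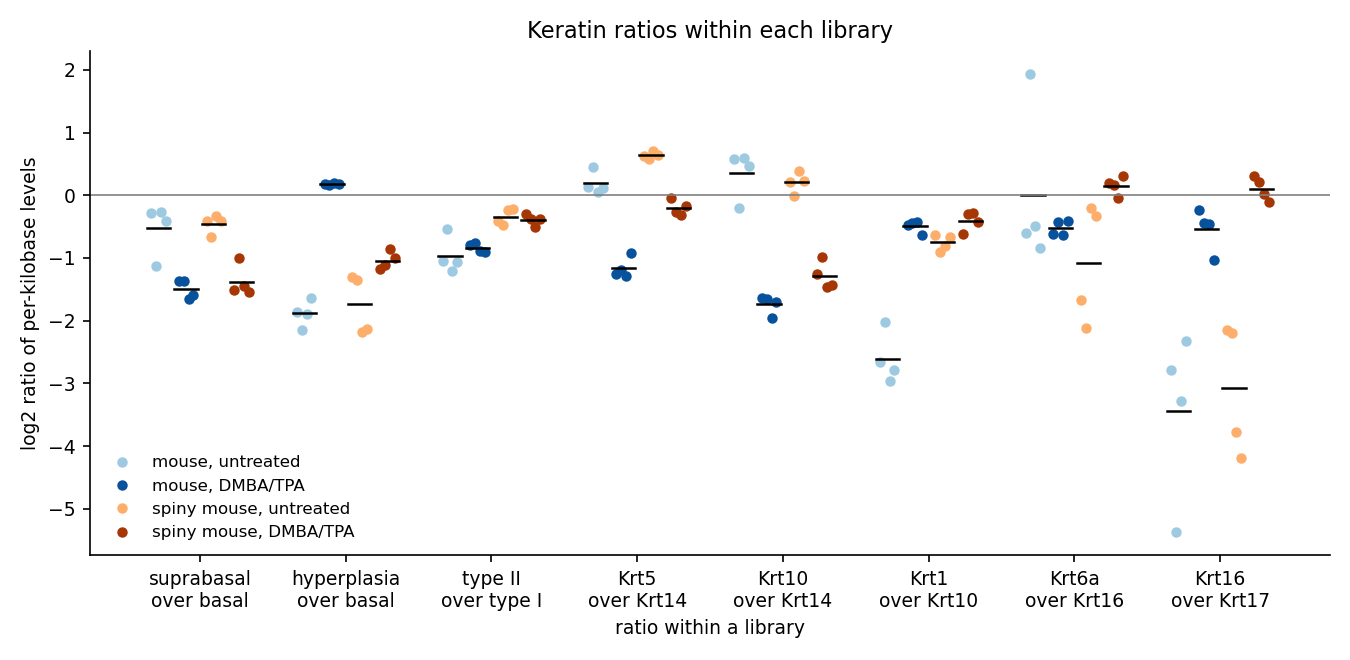
Log2 ratios of per-kilobase levels within each library, where 0 means equal levels. Points are the 4 libraries of a group and black bars their means. Hyperplasia over basal is above 0 in treated mouse libraries only among the 4 groups, and type II over type I overlaps between treated and untreated libraries of both species. The mouse sums for hyperplasia and type II hold Krt6b, which is not listed in spiny mouse, so these ratios are not alike between the species.

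The treatment effect itself was compared between the species as a species by treatment interaction over 13656 shared genes, of which 46.1% were called, 24.7% with a lower and 21.4% with a higher log2 fold change in spiny mouse. Of the 8 members tested, 3 were called, all lower in spiny mouse. Krt17 differed by -1.99 (SE 0.29, edgeR adjusted p = 5.61e-05), Krt1 by -1.55 (SE 0.34, edgeR adjusted p = 0.00184) and Krt2 by -6.46 (SE 1.2, edgeR adjusted p = 0.000477). Krt17 and Krt1 passed under all 27 settings run, main setting included. Krt2 passed under 26, missing the threshold with limma-voom (-5.65, adjusted p = 0.0756). No member was higher in spiny mouse, also at an unadjusted p under 0.05, and by adjusted p DESeq2 called 0 and limma-voom 1 (Krt10) higher.

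The other members did not show a called difference. Krt5 differed by 0.13 (SE 0.23, edgeR adjusted p = 0.662) and Krt14 by -0.38 (SE 0.27, edgeR adjusted p = 0.272). For Krt10 it was 0.31 (SE 0.40, edgeR adjusted p = 0.549) and for Krt6a 0.033 (SE 0.38, edgeR adjusted p = 0.954). Krt16 differed by -1.62 (SE 0.90, edgeR adjusted p = 0.151), and by -0.017 (adjusted p = 0.989) without untreated spiny mouse replicates 1 and 2. Scaling by the 12 keratinocyte genes, of which 7 had a lower fold change in spiny mouse by the same test, made Krt5 (0.76, edgeR adjusted p = 0.00157) and Krt10 (0.94, edgeR adjusted p = 0.0254) called. A missed threshold does not show that the species responded alike. Of the growing follicle genes, 10 of 10 were called lower in spiny mouse relative to mouse, beside 24.7% of all shared genes. Follicle content thus also differed between the species under treatment. Its part in the Krt17 and Krt1 differences was not tested.

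Of 18 other epithelial keratins, 15 had enough counts to be tested in each species. In mouse 6 rose (Krt8, Krt18, Krt42, Krt75, Krt79 and Krt80), 4 fell (Krt15, Krt24, Krt77 and Krt78) and 5 did not pass, with a median log2 fold change of 0.32. Of all genes tested in mouse, 25.9% rose and 35.3% fell. Krt42 had only 6 to 10 counts in untreated mouse samples. The Krt18 call was lost with upper-quartile factors (adjusted p = 0.0798), with library size alone (adjusted p = 0.0874) and with factors from the 12 keratinocyte genes (log2 0.41, adjusted p = 0.54), by edgeR. It was also lost without untreated replicate 1 or 4 or without any 1 of the 4 treated replicates (edgeR adjusted p from 0.0587 to 0.105). Krt8 was at 0.26 with the keratinocyte factors (edgeR adjusted p = 0.556). In spiny mouse none rose, 10 fell and 5 did not pass, with a median of -1.16, where 28.2% of all genes tested rose and 26.9% fell. Krt19, called lower, had 0 to 6 counts in treated spiny mouse samples. None of the 15 was higher in spiny mouse at an unadjusted p under 0.05 by edgeR either, nor by the adjusted tests of DESeq2 and limma-voom. Counted for the species difference, 7 were lower in spiny mouse, 1 (Krt24) higher and 7 not called, beside 24.7% lower and 21.4% higher over all shared genes.

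Krt77, a type II keratin that lies 7936 bases beyond Krt1 in mouse and 7815 bases in spiny mouse, fell in both species. Its untreated mouse mean (1450 CPM per kb) was close to those of Krt5, Krt10 and Krt14. In untreated spiny mouse skin its mean (1093 CPM per kb) lay between those of Krt1 (909.6) and Krt14 (1314). Mouse levels went from 5060, 1312, 4381 and 6248 CPM to 428.2, 106.9, 10.9 and 106.6 CPM (log2 -4.70, SE 0.99, edgeR adjusted p = 0.00308). Spiny mouse levels went from 3318, 2571, 4063 and 3463 CPM to 270.7, 570.3, 379.5 and 131.4 CPM (log2 -3.31, SE 0.40, edgeR adjusted p = 0.000174). The direction was thus opposite to that of its neighbour Krt1 in both species. Krt15, the type I keratin of the follicle bulge and of resting basal cells, fell alongside, from 881.6 to 1281 CPM down to 242.5 to 327.7 CPM in mouse and from 704.2 to 1208 CPM down to 270.6 to 297.1 CPM in spiny mouse. Its log2 fold changes were -2.06 (SE 0.18, edgeR adjusted p = 2.84e-05) and -1.64 (SE 0.16, edgeR adjusted p = 5.99e-05).

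Krt75, a keratin of the follicle's companion layer, rose in mouse from between 58.1 and 163.4 CPM to between 727.5 and 844.2 CPM (log2 3.05, SE 0.32, edgeR adjusted p = 7.52e-05). In spiny mouse it fell from between 174.7 and 415.7 CPM to between 75.7 and 153 CPM (log2 -1.47, SE 0.34, edgeR adjusted p = 0.00537). Krt79, a keratin of the follicle's upper duct, rose by 0.73 (adjusted p = 0.0127) in mouse and fell by 0.54 (adjusted p = 0.00306) in spiny mouse, by edgeR. Krt80 rose by 0.90 (adjusted p = 0.0101) in mouse and fell by 0.71 (adjusted p = 0.000442) in spiny mouse. The mouse directions of Krt79 and Krt80 flipped with scaling by the 12 keratinocyte genes (-0.23 and -0.048). The species differences of Krt75 (-4.52, edgeR adjusted p = 6.18e-06), Krt79 (-1.28, edgeR adjusted p = 0.000456) and Krt80 (-1.61, edgeR adjusted p = 0.000207) were called.

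Genes whose levels tracked 3 of the members most closely over the 8 samples of a species are given as a description. The 8 samples form 2 groups, so for Krt14 and Krt6a such values mostly restate the group difference. For Krt6a in mouse the closest of 11096 genes by Pearson's r of log2 CPM were Mars1, Ppm1g, Mcm5, Cdk1 and Rangap1, with r from 0.998 to 0.999. In spiny mouse they were Rnf126, Mcfd2, Arpc2, E2f8 and Ctsc among 10897 genes (0.995 to 0.999). Mcm5 and Cdk1 are genes of DNA replication and of entry into mitosis. For Krt14 they were Slfn9, Polh, Galnt3, Tmem185b and Rad21 in mouse (0.998 to 0.999) and Dnajc25, Dusp7, Vrk1, Fgfbp1 and Smc2 in spiny mouse (0.996 to 0.999). Krt10, whose groups overlapped, was followed most closely by Tmem154, Twsg1, Elmod1, Irak2 and Cpne3 in mouse (0.978 to 0.992). In spiny mouse the closest were Kdm3a, Krtdap, Mia2, Lzic and Rer1 (0.949 to 0.968). Krtdap encodes a secreted protein of differentiating keratinocytes, and its own log2 fold change was 0.26 (SE 0.14, edgeR adjusted p = 0.141) in spiny mouse.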

How the data were processed

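The authors deposited raw fragment counts per gene, 1 table for each species. Per the file headers, counting was done with featureCounts 2.0.3 on read pairs, with GRCm39 and the Ensembl 108 annotation for mouse and AcoCah2 for spiny mouse. Fragments mapping to several places or genes were not counted under those options. The submitters' processing notes also name Trim Galore and HISAT2. Series design text describes irradiated fibroblasts, and the title and labels were followed instead. Columns of treated samples are named as in the labels. Those of untreated samples were matched by species letter and replicate number.

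Within each species edgeR 4.0.16 (R 4.3.3) was used to filter genes (filterByExpr), to compute TMM factors and to run its quasi-likelihood F test over all 19740 (mouse) or 14833 (spiny mouse) genes, with Benjamini-Hochberg adjustment and calls at an adjusted p under 0.05. The species difference was the interaction over genes of the same symbol. The standard error is the log2 fold change divided by the square root of F. Levels are TMM-scaled CPM, and per-kilobase levels divide by the deposited gene length. Levels of the species were scaled separately and were not tested against each other. The fits were tested on simulated data. Of genes simulated with a log2 change of 1, 47.5% were called in the right direction in mouse and 87% in spiny mouse. For the species difference it was 52.1%. At a log2 change of 2 these shares were 87%, 98% and 90.6%. Changes of the smaller size were thus often missed in mouse and in the species difference. No 2 replicates agreed within sampling noise (chi-square per degree of freedom 11.35 to 165.8 over 24 pairs).

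Named genes were the 10 members, 18 other epithelial keratins, cell-type marker lists and the 5 genes closest to Krt14, Krt10 and Krt6a in each species. The members and lists were chosen with earlier results of these data known. Alternatives were other scalings (DESeq2 1.42.0 size factors, upper quartile, library size alone, 12 keratinocyte genes), no low-count filter, the DESeq2 test, limma-voom 3.58.1 with sample weights, a replicate block and leaving out libraries. Leaving out untreated spiny mouse replicates 1 and 2, and other length divisors, were chosen after seeing the data. RefSeq promoter windows were matched by symbol.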

Additional observations from a re-analysis of the deposited data

Results flagged for a closer look

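Species differences of the treatment effect were called for 3 of the 8 keratins tested, beside 46.1% of all 13656 shared genes. Krt1 rose in all 4 treated samples of both species, and its log2 fold change differed by -1.55 (spiny mouse minus mouse). Krt2 was lower in all treated spiny mouse samples and overlapped between groups in mouse, with a difference of -6.46 that rests on 4 to 15 counts in treated spiny mouse samples. Krt17 differed by -1.99. In 38 member and group combinations of 4 samples, no single sample lay far enough from the other three to be singled out by Dixon's ratio, although chance alone would do so in about 1 of 20. Untreated mouse replicate 2 (Krt6b at 4.12 CPM against 71 to 220.5) and untreated spiny mouse replicate 1 (Krt2 at 5.07 CPM against 62.1 to 170.8) were not singled out, because the other samples spread widely too.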

How the results depend on the processing

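Over 153 recomputed member values in mouse, 153 in spiny mouse and 208 for the species difference, 134, 143 and 193 kept their direction and their side of the threshold. In mouse, no member was called lower with TMM factors, 1 (Krt2) was with upper-quartile factors, library size alone, limma-voom or without untreated replicates 1 and 2, and 2 (Krt2 and Krt10) were with factors from 12 keratinocyte genes; leaving out single libraries gave 0 to 1. Mouse Krt10 turned to 0.096 with DESeq2 (size factors and test), 0.13 without the filter and 0.086 with the replicate block, and ran from -0.18 to 0.14 without single libraries. Mouse Krt20 turned to 0.001 with DESeq2 size factors, 0.000 in its test and 0.051 without the filter (-0.34 to 0.11 without single libraries). With the keratinocyte factors, mouse Krt5, Krt23, Krt19, Krt80 and Krt79 turned to -0.14, -0.60, -0.65, -0.048 and -0.23, and of the other keratins 2 were called higher and 8 lower. In spiny mouse, those factors turned Krt4 to -0.23 and Krt10 to -0.032. Limma-voom called 1 member lower (Krt2 at -6.86, adjusted p = 0.0513, was lost). Other keratins called higher numbered 2 without the filter and 0 to 2 without single libraries. Krt7 turned to 0.61 without untreated replicates 1 and 2. For the species difference, Krt6a turned to -0.072 with DESeq2 size factors and test and -0.093 without the filter (-0.26 to 0.29 without single libraries), Krt23, Krt14 and Krt78 to 0.075, 0.25 and 0.39 with keratinocyte factors, and Krt7 to 1.10 without untreated spiny mouse replicates 1 and 2. Members called with a higher fold change in spiny mouse numbered 2 with keratinocyte factors and 1 with limma-voom. Other keratins so called numbered 2 with library size, no filter or limma-voom, 3 with keratinocyte factors, and 1 to 2 without single libraries. Where no value above shows a cause, the cause was not tested.

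Counts without division by length moved the log2 change of suprabasal over basal in mouse to -0.57, of hyperplasia over basal in mouse to 2.29 and of type II over type I in spiny mouse to 0.12. Higher genes made up 42.4% of mouse calls, but 30.5%, 28.6% and 6.35% with upper-quartile, library-size and keratinocyte factors, which shifted the median log2 fold change by -0.20, -0.24 and -0.98. In spiny mouse they made up 51.1%, and 18.3% with keratinocyte factors (shift -0.33). For the species difference the share was 46.4%, and 61.2%, 66.2%, 88% and 36.3% with upper-quartile, library-size and keratinocyte factors and without the filter.

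The replicate numbers did not pair the samples: deviations of same-numbered samples correlated at -0.008 to 0.023 in mouse and -0.53 to -0.20 in spiny mouse. With the replicate block 11246, 7418 and 5723 genes were called in mouse, spiny mouse and the species difference, beside 12085, 8180 and 6290. Among members the block moved spiny mouse Krt1 to 0.63 (adjusted p = 0.058) and Krt17 to 0.58 (adjusted p = 0.057). Depth limits statements on Krt13 in mouse and Krt2 in treated skin.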

Other observations

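Genes of the cornified envelope, which keratinocytes switch on above the keratin-filled spinous layers, were measured beside the suprabasal keratins. They belong to a list of suprabasal layer genes, 10 of them tested in each species. In mouse 6 were called higher and 1 lower, beside 25.9% and 35.3% of all genes tested. In spiny mouse 4 were called higher and 1 lower, beside 28.2% and 26.9%. Tgm1 and Casp14 were called higher in both species. Tgm3 rose in mouse (log2 3.78, edgeR adjusted p = 6.25e-05) and was not called in spiny mouse (log2 -2.01, edgeR adjusted p = 0.081). Flg, the filaggrin gene whose product bundles keratin filaments, rose in both species, from 186.1 to 1298 CPM on average in mouse (log2 2.80, SE 0.20, edgeR adjusted p = 1.23e-05) and from 312 to 1531 CPM in spiny mouse (log2 2.29, SE 0.30, edgeR adjusted p = 0.000233). The loricrin gene, a main component of the envelope, fell from 292.7 to 172.7 CPM in mouse (log2 -0.76, SE 0.30, edgeR adjusted p = 0.0498) and from 798.9 to 152.1 CPM in spiny mouse (log2 -2.39, SE 0.38, edgeR adjusted p = 0.000671). Its mouse groups overlapped (157.5 to 427.3 CPM untreated, 130 to 216.3 CPM treated). It is listed under different symbols in the tables and its species difference was not tested. Ivl, the involucrin gene, rose in mouse from 36.9 to 121.4 CPM (log2 1.72, SE 0.20, edgeR adjusted p = 0.000123) and was at 79 and 81.3 CPM in spiny mouse (log2 0.040, adjusted p = 0.907). The species difference of Ivl was -1.68 (SE 0.35, edgeR adjusted p = 0.00113).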
